A study of Hipposideros armiger with 2 samples.

Results

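Superoxide dismutases, catalase and the peroxiredoxins are the enzymes that dispose of superoxide and hydrogen peroxide in animal cells. The 10 genes described here are SOD1, SOD2, SOD3, CAT and PRDX1 to PRDX6. They were taken by name from the authors' expression tables, out of 12783 distinct gene names on 55378 assembled genes. All 10 were found, on 31 assembled genes, and they were ordered by where their proteins work: cytosol, mitochondria, peroxisome, or outside the cell and along the secretory route. The libraries are of 2 bats of the species Hipposideros armiger, the great Himalayan leaf-nosed bat, and form 1 group, CW, named for a cave in Chunwan City. Both carry the labels liver, WT and heavy metals exposure; replicate 2 is also labelled as an adult male, and the design text speaks of adult males only. Bats of the second cave, in Yingde City, were not analysed here, so the values below hold no comparison group and give no effect of metals.

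Superoxide, which leaks from mitochondria and is made on purpose by phagocyte oxidases, is converted by superoxide dismutases to hydrogen peroxide and oxygen. SOD1 uses copper and zinc in the cytosol, SOD2 uses manganese in the mitochondrial matrix, and SOD3 is a secreted copper and zinc enzyme bound to the extracellular matrix. Hydrogen peroxide is then broken down by catalase, which is concentrated in peroxisomes and is abundant in hepatocytes and red cells. Peroxiredoxins reduce it with a reactive cysteine that the thioredoxin system restores in most of the family.

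The libraries were not alike in tissue markers, and every value below should be read with this in view. All 10 hepatocyte markers were detected in both, with a summed level of 14234 TPM (a length-scaled share of all transcripts) in replicate 1 and 425 TPM in replicate 2, and 0 of the 10 were at 0 counts. The 10 markers of alveolar and airway epithelium summed to 11959 and 19032 TPM, also with 0 at 0 counts, although both libraries are labelled liver. SCGB3A1 made up 8069 and 12898 TPM of that sum. SCGB1A1 had 1 count in replicate 1, under the detection floor of 3, and 24 in replicate 2. The counts behind the members ran from 314 (SOD3) to 8647 (CAT) in replicate 1 and from 406 (SOD3) to 7034 (PRDX6) in replicate 2. Replicate 1 held 18741210 expected counts and replicate 2 held 18778331. No p-value was computed, since the data set 1 library against 1 library; SDs are over n = 2, and nothing beyond the labels and the design text shows that these are separate animals.

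**Figure D1:**
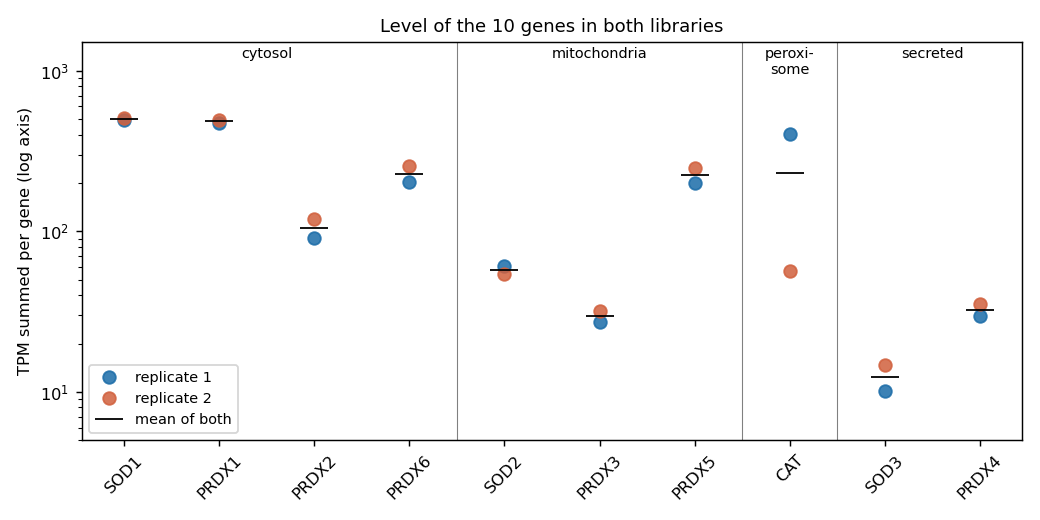
Level of each gene in TPM (log axis), summed over its assembled genes, by cell compartment; points are the libraries and the bar is their mean. Points of 9 genes lie close together, whereas those of CAT, at 403 and 57.0 TPM, stand far apart.

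In the cytosol, SOD1 and PRDX1 were the most abundant of the 10 members in both libraries in the deposited TPM. The level of SOD1 was 496 TPM in replicate 1 and 507 in replicate 2. PRDX1, a peroxiredoxin with a pair of catalytic cysteines, was at 474 and 495 TPM. SOD1 ranked 122nd and 133rd among all names by TPM, and PRDX1 133rd and 136th. The range of SOD1 did not overlap that of PRDX1, with means 17.7 TPM apart, and SOD1 was the higher in both libraries in the deposited TPM. PRDX6, which carries a single catalytic cysteine and also acts on phospholipids, including those of lung surfactant, was at 202 and 254 TPM. PRDX2, the peroxiredoxin that dominates in red cells, was at 91.2 and 119 TPM. PRDX1 was therefore 5.19 times PRDX2 in replicate 1 and 4.17 times in replicate 2 in the deposited TPM. No scaling between libraries touches this ratio within each library, but the lengths used do, as given below. Erythroid markers were plentiful beside PRDX2: 7 of 10 names were found, summing to 29925 and 36344 TPM, nearly all from the globins. CA1 was at 0 counts in replicate 1.

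In the mitochondria, PRDX5 exceeded SOD2 and PRDX3. PRDX5, a peroxiredoxin that also resides in peroxisomes and the cytosol, was at 201 and 249 TPM. SOD2 was at 60.8 and 53.9 TPM, and it was the one member besides CAT with a lower deposited TPM in replicate 2. PRDX3, the peroxiredoxin confined to mitochondria, was at 27.2 and 32.0 TPM. SOD1 stood at 8.17 times SOD2 in replicate 1 and 9.42 times in replicate 2, and PRDX5 at 7.39 and 7.78 times PRDX3. From the largest assembled gene of each alone, these ratios were 23.4 and 25.5 for SOD1 over SOD2, and 10.3 and 18.1 for PRDX5 over PRDX3. With full lengths, given below, both ratios were lower than the deposited ones in both libraries. PRDX5 and the cytosolic PRDX6 were nearly equal, with PRDX6 at 1.01 and 1.02 times PRDX5, and their ranges overlapped.

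The order of the levels also depended on the length each count is divided by. In TPM recomputed from the counts and the full listed lengths, PRDX1 was at 463 and 429 TPM and SOD1 at 369 and 357, so that PRDX1 was the higher of the pair in both libraries. On that scale PRDX6 was at 305 and 366 TPM and PRDX5 at 105 and 134, no longer equal. SOD2 was there at 60.7 and 56.4 TPM, PRDX3 at 34.8 and 30.1 and SOD3 at 16.5 and 23.1. PRDX2 was at 100 and 129 TPM on that scale. PRDX1 over PRDX2, SOD1 over SOD2, SOD1 over SOD3 and PRDX5 over PRDX3 were thus all lower than in the deposited TPM. The deposited values give the longest PRDX5 assembled gene, listed at 2239 bases with 25 transcripts, 14.7 counts per TPM in replicate 1, less than the 31.6 of the 1637-base PRDX6 one.

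Outside the cell and along the secretory route, SOD3 was the lowest of the 10 members in both libraries. PRDX4, the peroxiredoxin of the endoplasmic reticulum, was at 29.7 and 35.4 TPM. SOD3 was at 10.1 and 14.7 TPM, from 314 and 406 counts. SOD1 exceeded SOD3 by 49.3 and 34.5 times. As means, SOD3 stood at 12.4 ± 3.3 TPM, PRDX3 at 29.6 ± 3.4, PRDX4 at 32.5 ± 4.0 and SOD2 at 57.3 ± 4.9 (SD, n = 2), and above them PRDX2 at 105 ± 19.5, PRDX5 at 225 ± 33.9 and PRDX6 at 228 ± 36.2. The ranges of PRDX4 and PRDX3 overlapped, so their order was not resolved by the spread between the libraries. SOD3 lay below PRDX3 in both libraries, without overlap.

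CAT was the member that differed by over 2-fold between the libraries. Its level was 403 TPM in replicate 1 against 57.0 in replicate 2, and it moved from rank 164 to rank 1155 among all names. In counts it had 8647 and 2546, which is 0.0461% of replicate 1 (Wilson 95% interval 0.0452% to 0.0471%) and 0.0136% of replicate 2 (0.0130% to 0.0141%). The intervals, which cover counting error only, did not overlap. In the deposited TPM of replicate 1, CAT was the next member below PRDX1, at 0.850 times its TPM and 0.811 times that of SOD1. In replicate 2 it was at 0.115 times PRDX1 and 0.112 times SOD1. The mean of 230 ± 245 TPM (SD, n = 2) therefore describes neither library. In the order of deposited means CAT stood between PRDX1 and PRDX6, as it did in replicate 1, whereas in replicate 2 it lay below PRDX6. Its place in replicate 1 depended on the scale. In TPM from full lengths CAT was at 379 there, below PRDX1 at 463 and above SOD1 at 369. From the assembled gene with most counts alone, CAT was at 158 TPM in replicate 1, below PRDX6 at 199 and PRDX5 at 198. In bulk tissue, fewer cells of a type and less RNA per cell cannot be told apart. All 10 hepatocyte markers were lower in replicate 2 too, and their part in the CAT difference was not tested.

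The CAT level rested on 2 assembled genes that gave different answers. The longer one, of 2313 bases with a best protein match to dog catalase, had 8335 and 2543 counts and 158 and 54.3 TPM. The shorter one, of 252 bases with a best match to orangutan catalase, had 312 and 3 counts and 244 and 2.64 TPM. The shorter one thus held 3.61% of CAT counts in replicate 1 but 60.7% of CAT TPM. One TPM corresponded there to 1.28 counts, against 52.6 counts for the longer one. The deposited TPM put the CAT difference at 7.07-fold. TPM recomputed from the counts and full lengths gave 379 and 94.3, a 4.02-fold difference. The longer assembled gene differed by 3.28-fold in counts (exact interval 3.13 to 3.43) and the shorter by 104-fold (35.3 to 507), before any scaling for depth. The interval of the shorter is wide because replicate 2 had only 3 counts, the number taken as the detection floor.

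**Figure D2:**
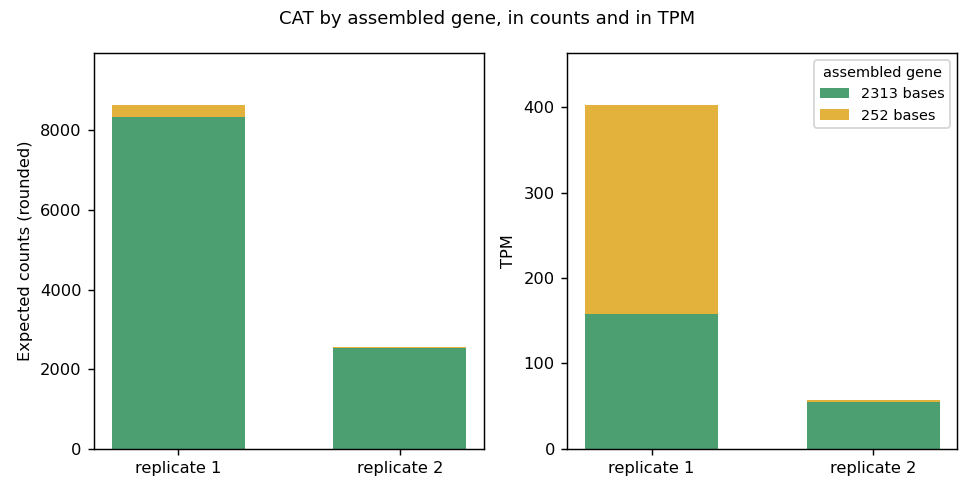
CAT in both libraries, in rounded expected counts (left) and in TPM (right), stacked by assembled gene. The 252-base assembled gene is a thin band of counts, 312 of 8647 in replicate 1, and the larger part of the TPM there, 244 of 403.

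Both parts of the catalase protein were represented: the authors' tables list the Pfam domain Catalase for the longer assembled gene and Catalase-rel, a domain next to it in the enzyme, for the shorter. All 31 assembled genes carried a Pfam domain of their family. These were Sod_Cu for SOD1 and SOD3, the N- or C-terminal domain of iron and manganese superoxide dismutases for SOD2, Redoxin for PRDX5, and AhpC-TSA or its C-terminal companion for the other peroxiredoxins. Best matches were to human (10), cow (7), mouse (7) and 7 other mammals with 1 each. The tables' Gene Ontology terms name the peroxisome for both CAT and all 3 PRDX5 assembled genes, and also for the 297-base PRDX1 and the 273-base SOD1 one. They do not name mitochondria for the largest SOD2 and PRDX3 assembled genes, nor the endoplasmic reticulum for that of PRDX4. Mitochondria are named for both CAT ones and for the largest of PRDX1 and PRDX2. The order by compartment was not taken from these terms. A best match names the closest protein in the database and not the species of the transcript.

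For most members 1 assembled gene held nearly all counts. The largest held at least 97.8% of counts in both libraries for SOD1, PRDX1, PRDX2, PRDX5 and PRDX6, and SOD3 and PRDX4 had 1 assembled gene each. SOD2 and PRDX3 were more divided. SOD2 had 6 assembled genes, and the largest, of 3413 bases, held 83.4% and 86.3% of its counts (1346 and 1303) but 34.0% and 35.1% of its TPM. A SOD2 assembled gene of 598 bases went from 64 to 11 counts, a ratio of 5.82 (exact interval 3.04 to 12.2), while the other 5 had a log2 ratio between -0.33 and -0.12. Those above 1% of SOD2 counts had 119 and 110 counts (1314 bases), 53 and 55 (856 bases), and 17 and 16 (281 bases). In deposited TPM the 598-base one went from 8.90 to 1.54 and the largest from 20.7 to 18.9. The others were slightly higher in replicate 2, so the lower SOD2 TPM there came mostly from the 598-base one. PRDX3 had 4 assembled genes. The largest, of 1554 bases, had 590 and 396 counts, and the next, of 1258 bases, had 54 and 60. An assembled gene of 289 bases had 1 count in replicate 1 and 11 in replicate 2, yet made up 34.9% of the PRDX3 TPM there. PRDX3 thus had a higher deposited TPM in replicate 2 but fewer counts, with 649 and 470. A second PRDX2 assembled gene, of 491 bases, had 17 and 22 counts.

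**Figure D3:**
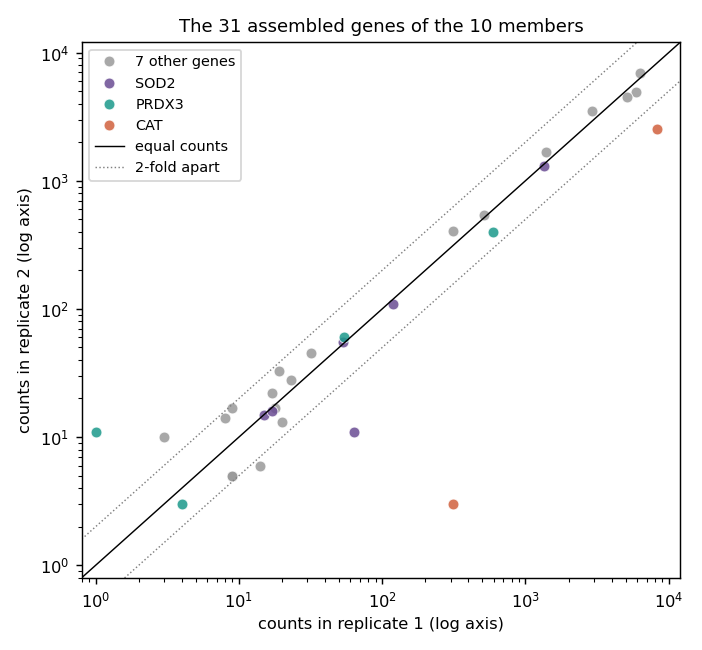
Rounded expected counts of the 31 assembled genes in replicate 1 (horizontal) and replicate 2 (vertical), both on log axes, unscaled. Most points lie near the line of equal counts; both CAT points, the 598-base SOD2 point (64 and 11 counts) and 1 PRDX2 point (14 and 6) lie below the lower 2-fold line, and 1 PRDX3 point (1 and 11) and 1 PRDX1 point (3 and 10) above the upper one.

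Of the 31, 14 had at least 100 counts over both libraries. Among these, 2 were over 2-fold lower in replicate 2 after scaling, both of CAT, and 12 were within 2-fold, with log2 ratios from -0.82 to 0.09. The remaining 17, including the 598-base one of SOD2, had fewer. In the assembly as a whole, short assembled genes carried few counts per TPM: among those with at least 100 counts, the median in replicate 1 was 1.26 counts per TPM under 300 bases and 31.3 from 300 bases on.

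Differences between the libraries were then put on a common scale. Counts were scaled by TMM factors fitted on all assembled genes, and the log2 ratio of CPM + 1 (counts scaled for library size) in replicate 2 over replicate 1 was taken, which understates changes of low genes. All 10 members passed the filter of 1 CPM. CAT was over 2-fold lower in replicate 2, with a log2 ratio of -2.03, or 4.08-fold. Of the 10 members, 1 was past 2-fold downwards and 0 upwards. Among all 11289 names that passed, the shares were 5.21% downwards and 0.0266% upwards. CAT is among the 300 names with the lowest ratios, which is 2.66% of those that passed. Against that background the count of 1 is not a result about the members as a set.

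The other 9 members had log2 ratios from -0.71 to 0.09. In the cytosol, PRDX1 was at -0.52, SOD1 at -0.45, PRDX6 at -0.13 and PRDX2 at 0.00. The mitochondrial members were at -0.71 for PRDX3, -0.36 for SOD2 and -0.02 for PRDX5. PRDX4 was at -0.19 and SOD3 at 0.09. The median over all 10 was -0.28, against -0.01 over all names, whose quartiles were -0.18 and 0.12. Between these quartiles were 4 members (PRDX2, PRDX5, PRDX6 and SOD3), and 6 lay below the lower one.

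The direction of these small differences depended on the scale. In deposited TPM 8 of the 10 members were higher in replicate 2, while 8 of 10 had a negative ratio in TMM-scaled counts. The median of all names itself stood at 0.33 in the log2 TPM ratio and at 0.24 with library size scaling. All 3 scales rest on the same reads. Relative to the median of each, 9 members had 1 sign under all 3. These were CAT, SOD1, PRDX1, PRDX3, PRDX4, PRDX6 and SOD2 below it and PRDX2 and SOD3 above it; PRDX5 changed sides. Relative to that median, SOD1 was at -0.44 in TMM-scaled counts and -0.30 in TPM, and SOD2 at -0.35 and -0.50. PRDX3 was at -0.70 in counts and -0.11 in TPM, PRDX6 at -0.12 and -0.01, and PRDX2 at 0.01 and 0.05. The signs of PRDX6 and PRDX2 thus rest on values near 0. In TMM-scaled counts the counting intervals of PRDX2 (-0.10 to 0.10), PRDX5 (-0.09 to 0.05) and SOD3 (-0.12 to 0.31) spanned 0. Those of the other 6 members besides CAT lay below 0, and they cover counting error only. Apart from CAT, no member reached 2-fold under any of the 9 settings tried.

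**Figure D4:**
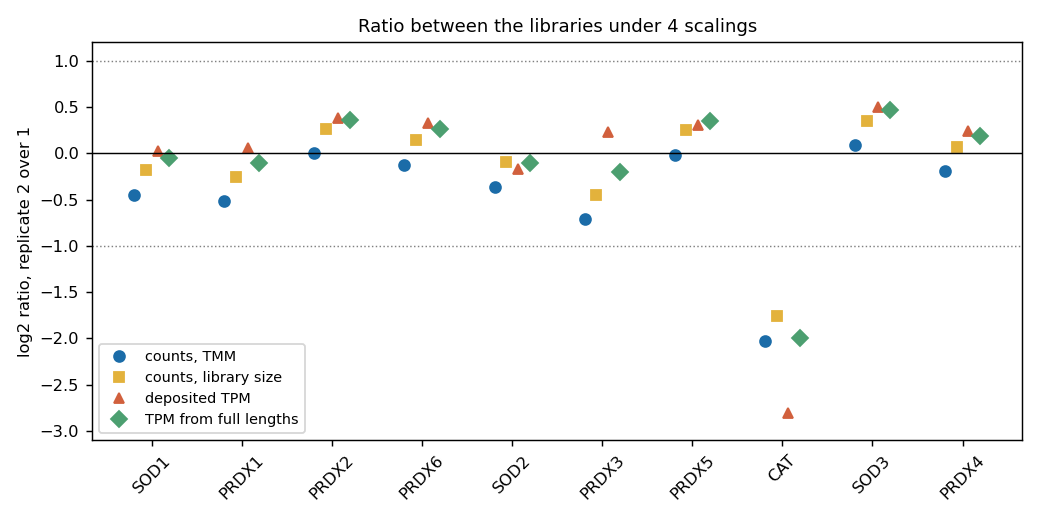
Log2 ratio of replicate 2 over replicate 1 for each gene under 4 scalings; dotted lines mark 2-fold. CAT lies between -1.76 and -2.80 under all 4, and the other 9 genes stay inside the dotted lines, of which SOD1, PRDX1, PRDX3, PRDX4, PRDX5 and PRDX6 change sign between scalings.

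Other enzymes that make or remove hydrogen peroxide were set beside the members. Peroxiredoxins depend on thioredoxin, thioredoxin reductases and sulfiredoxin, which rescues the overoxidised cysteine. All 13 names of that list were found and passed the filter, and 0 of 13 were over 2-fold apart, with a median log2 ratio of -0.08. TXNIP, an inhibitor of thioredoxin, was at 130 and 167 TPM and TXNDC17, a thioredoxin-related protein, at 66.8 and 61.7 TPM. TXNRD1, the cytosolic reductase, was at 49.2 and 39.1 TPM, and TXN2, the mitochondrial thioredoxin, at 34.5 and 36.6 TPM. The cytosolic thioredoxin TXN had only 3.22 and 3.12 TPM, from 21 and 18 counts on 1 assembled gene. It is outside the naming rule and was picked out for this low value. Names are best protein matches, and whether TXN reads lie under other names was not tested.

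Of the glutathione peroxidases and their partners, 10 of 13 names were found, with a list median of -0.29. In replicate 2, 1 of 10 was over 2-fold lower, beside 5.21% among all names. The lower one was GPX3, the plasma glutathione peroxidase, at 536 and 156 TPM with a log2 ratio of -2.33. GPX1, the main cytosolic form, was at 425 and 430 TPM, GPX4, which repairs lipid peroxides, at 218 and 228 TPM, and GPX2, a form of epithelia, at 60.4 and 66.9 TPM. In deposited TPM, CAT stood at 0.948 times GPX1 in replicate 1 and 0.132 times in replicate 2.

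Oxidases that release hydrogen peroxide, most of them peroxisomal, were lower in replicate 2 more often than not. Of 11 found and tested, 7 were past 2-fold downwards and 0 upwards, with a median log2 ratio of -2.30, beside 5.21% lower among all names. The urate oxidase UOX was at 104 and 2.73 TPM (-4.96). HAO2, a hydroxyacid oxidase, was at 53.0 and 2.76 TPM (-3.37). PAOX, a polyamine oxidase, was at 22.3 and 32.1 TPM, with a log2 ratio of 0.08. Others among the 7 were HAO1 (-4.31), PIPOX (-3.79), DAO (-3.16) and ACOX2 (-2.30), named after their values were seen. CAT was at -2.03.

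Peroxisome assembly genes were within 2-fold in 17 of 18. All 18 names were found, and 1 was over 2-fold lower, beside 5.21% lower among all names. The median was -0.09 and the summed level 207 and 209 TPM. PEX19, which inserts membrane proteins into peroxisomes, was at 24.2 and 33.3 TPM, PEX16, another membrane factor, at 22.9 and 14.4, the transporter ABCD3 at 19.4 and 14.0, and PEX5, the receptor that imports most matrix enzymes, at 19.3 and 11.99 TPM. Whether the list of oxidases differs from that of assembly genes was not tested, as members of a list are not replicates.

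**Figure D5:**
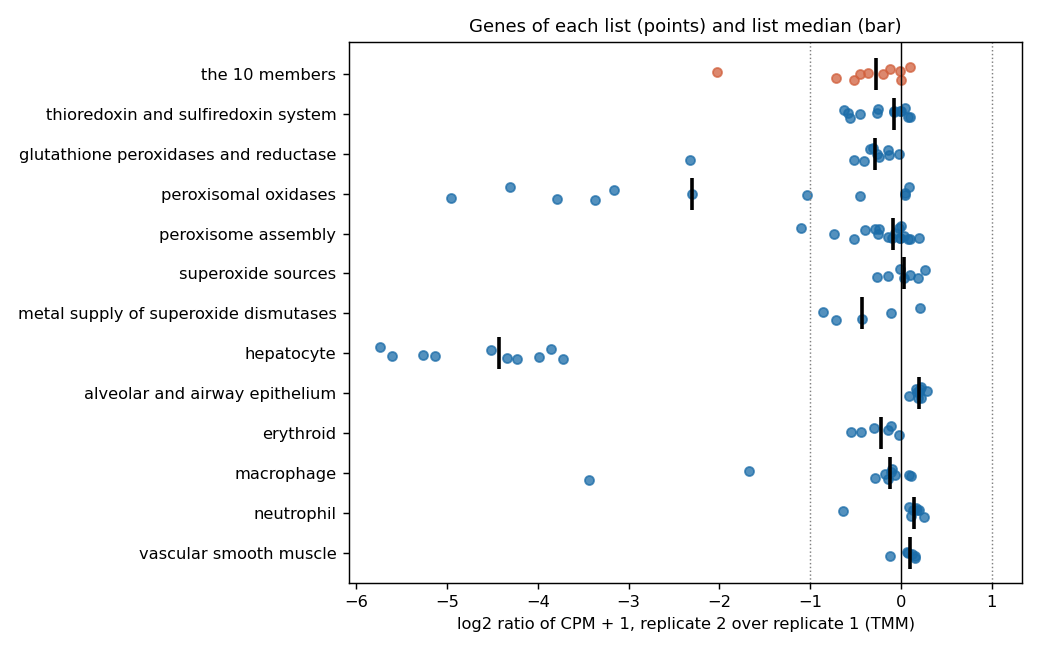
Log2 ratio of replicate 2 over replicate 1 (TMM-scaled CPM + 1) for tested genes of each list; each point is a gene, the bar the list median, and dotted lines mark 2-fold. The 10 hepatocyte markers lie from -5.74 to -3.72 and the 9 tested alveolar and airway markers from 0.09 to 0.28; CAT is the one member of its set left of the 2-fold line.

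Among superoxide sources and metal supply genes, none that was tested passed 2-fold in TMM-scaled counts. Of the phagocyte and epithelial oxidase genes, 7 of 11 names were found and 0 of 7 were over 2-fold apart (median 0.03). They were led by CYBA, a membrane subunit, at 43.9 and 53.1 TPM and by RAC2, a GTPase that switches the oxidase on, at 25.7 and 20.6 TPM. NOXO1, an organizer of an epithelial oxidase, was at 8.23 and 12.1 TPM and NCF4, a cytosolic subunit, at 5.51 and 9.03 TPM. Genes listed for the metal supply of superoxide dismutases were found for 6 of 9 names. Of these, 5 were tested and 0 were over 2-fold apart (median -0.43, against -0.01 over all names). They ran from -0.86, for the metal transporter SLC39A14 with 350 and 224 counts, to 0.21; SLC39A14 is outside the naming rule. CCS, the chaperone that loads copper into SOD1, was at 25.5 and 23.7 TPM with a log2 ratio of -0.71. The mitochondrial iron carrier SLC25A37 had 627 and 879 counts, and in TPM the metal transporter SLC39A8, which takes up manganese, was at 9.57 and 8.96 and the copper importer SLC31A1 at 9.82 and 5.67.

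Markers of cell types that could carry the members moved as follows. Hepatocyte markers were over 2-fold lower in 10 of 10, with a median of -4.43, led by ALB at 7990 and 176 TPM, APOE at 2987 and 72.0, ASS1 at 1003 and 33.1 and HPD at 748 and 61.4. CAT, at -2.03, was less far below 0 than any of them; the nearest was TAT at -3.72. SCGB1A1 was below the filter, and 0 of the other 9 alveolar and airway markers were past 2-fold (median 0.20). They were led by SCGB3A1 at 8069 and 12898 TPM, SFTPC at 2554 and 4047, SFTPB at 462 and 714 and SFTPA1 at 358 and 547. For erythroid markers the median was -0.22, and 0 of 6 were past 2-fold; HBA was at 17715 and 21330 TPM, HBB at 12118 and 14934, ALAS2 at 47.8 and 40.7 and CA2 at 24.6 and 16.3.

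Macrophage markers were found for 10 of 10 names, summing to 594 and 756 TPM, with a median of -0.13. Over 2-fold lower were 2 of 10, beside 5.21% among all names: MARCO at -3.44 and CD5L at -1.68. CD5L had 43 counts in replicate 1 and 2 in replicate 2, under the detection floor of 3. LYZ led at 248 and 358 TPM, then C1QC at 91.6 and 129, C1QA at 70.3 and 96.0 and C1QB at 69.1 and 93.5. Neutrophil markers summed to 3006 and 4611 TPM, with MPO at 0 counts in both libraries and ELANE at 0 in replicate 1, and 0 of 8 tested were over 2-fold apart (median 0.15). They were led by LCN2 at 2019 and 3158 TPM, S100A8 at 555 and 816, S100A9 at 354 and 517 and CSF3R at 45.2 and 69.9. Vascular smooth muscle markers, of a tissue layer in which SOD3 is known to be made, were within 2-fold in 6 of 6 (median 0.10), with TAGLN at 358 and 488 TPM, ACTA2 at 235 and 323, MYL9 at 225 and 343 and DES at 99.9 and 146. Their part in the levels of the members was not tested.

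The names whose pair of levels lay nearest to that of CAT, by distance on log2(TPM + 1) over the 2 libraries, were ASL, UQCRC1, DDT, APOA1 and CHCHD10. The distance used the deposited CAT TPM, of which the 252-base assembled gene made up 60.7% in replicate 1. Distances with CAT on other scales were not computed. ASL, a urea cycle enzyme, was at 347 and 41.5 TPM, 0.50 from CAT. The respiratory complex III subunit UQCRC1 was at 313 and 85.4 TPM, 0.68 away, and the tautomerase DDT at 264 and 74.3, 0.71 away. The apolipoprotein APOA1 was at 518 and 36.6 TPM and the mitochondrial protein CHCHD10 at 255 and 46.1, each 0.72 away. In TMM-scaled counts their log2 ratios ran apart: -3.70 for ASL, -1.30 for UQCRC1, -1.77 for DDT, -4.34 for APOA1 and -2.92 for CHCHD10, beside -2.03 for CAT.

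Added up, the 10 members made 1995 TPM in replicate 1 and 1816 TPM in replicate 2, or 0.200% and 0.182% of all TPM. Cytosolic members made up 63.3% and 75.7% of this sum, mitochondrial members 14.5% and 18.4%, CAT 20.2% and 3.14%, and the secreted and secretory pair 1.99% and 2.76%. The peroxiredoxins as a family summed to 1025 and 1183 TPM and the superoxide dismutases to 567 and 576 TPM. Without CAT the 9 members summed to 1593 and 1759 TPM. The summed level was thus lower in replicate 2 with CAT and higher without it, in deposited TPM. In TMM-scaled counts the 9 members without CAT were lower in replicate 2 as well, with a log2 ratio of -0.28.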

How the data were processed

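RNA from tissue labelled liver of 2 bats of the CW group was sequenced after poly(A) selection, per the labels' protocols. Features are Trinity clusters, per the file headers and identifiers; the assembler's version and the quantifier are not given in the sources used here. Cutadapt 1.9 is listed per the submitters' processing notes, as is a mouse build for replicate 1 with no stated use. The authors deposited expected counts, marked so by the header, which were rounded to whole numbers per assembled gene. A second deposited column was read as TPM from its totals of 996837 and 996239. Names are best Swiss-Prot matches in the authors' tables. Where copies are nearly identical, their reads may be divided among several assembled genes.

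TPM and counts were summed per upper-cased name. TMM factors (edgeR 4.0.16, R 4.3.3) were 0.910 and 1.10. The median over assembled genes with at least 1 CPM was removed from log2(CPM + 1) ratios. Wilson and exact intervals are at 95% and reflect counting error alone: without molecular identifiers, PCR copies count as separate reads. Scripts ran in Python 3.11.15 with scipy 1.17.1, pandas 2.3.3 and numpy 2.4.6; figures used matplotlib 3.10.9. RefSeq's gene table for this bat holds all 10 names; no sequence was used.

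Named were all members, their assembled genes with at least 1% of a member's counts, the 4 highest genes of each of 12 lists, and the 5 names nearest to CAT; others are marked. Some genes of the context lists are counted there but not reported here. Members and lists were chosen with earlier results of these data known. Alternatives were other scalings, pseudocounts and filters, the highest assembled gene only, TPM without the 10 highest assembled genes, TPM from full lengths, and each replicate alone.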

Additional observations from a re-analysis of the deposited data

How the results depend on the processing

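CAT was the 1 member over 2-fold lower in replicate 2 under each of the 9 scalings and choices tried. Its log2 ratio of -2.03 went to -1.76 with library size scaling, where the median of all names is left at 0.24, and to -2.80 in deposited TPM, where the 252-base assembled gene weighs more. The ratio of TPM from full lengths (-1.99) was an alternative chosen after seeing the data; the others were planned. The sum of the 10 members, 1906 TPM on average, was 1674 with the highest assembled gene of each name only, 2585 when the 10 highest assembled genes of the library were left out of the total, and 1769 in TPM from full lengths. The first 2 of these shifts follow from how those settings are built. Without each replicate in turn the sum ranged from 1816 to 1995 TPM and CAT from 57.0 to 403 TPM. With the highest assembled gene only, CAT averaged 124 TPM in place of 230, from the 252-base assembled gene, and differed 92.6-fold in place of 7.07-fold; the ratio in counts took the 2313-base one (-1.98). Under that choice SOD2 averaged 19.8 TPM in place of 57.3; in TPM from full lengths PRDX5 averaged 119 in place of 225. The ratio has no value without a replicate. No paired analysis was possible because both libraries belong to the same group. Depth does not limit the CAT difference, with 2546 counts in the lower library, but it limits assembled genes under 100 counts; the spread between animals is unknown.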
